A study of Homo sapiens with 12 samples.

Results

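KLF2, KLF3, KLF4, KLF6, KLF7, KLF9, KLF10, KLF11, KLF13 and KLF16 are Krüppel-like factors, a family of zinc finger transcription factors. The 10 genes were taken by symbol from the 26364 genes listed in the count files, and all 10 passed the filter on low counts. They were measured by bulk RNA-seq in HL-60, a human promyelocytic leukemia line that differentiates toward neutrophils when given all-trans retinoic acid (ATRA). Untreated cells (0 h) were set against cells kept in 1 µM ATRA for 4 h, for 2 d or for 4 d. Each of these 4 groups had 3 libraries, which makes 12. All groups were the same line, grown in medium with 20% fetal bovine serum. Whether the replicates of a time were separate cultures is not in the labels, so a p-value here speaks only of the spread among libraries, which may be technical. In bulk RNA, fewer cells of a type and less RNA per cell cannot be told apart.

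Krüppel-like factors bind GC-rich boxes and CACCC elements through zinc fingers at their carboxyl end, and differ in the parts that recruit partners. KLF2, KLF4, KLF6 and KLF7 are grouped as mainly activating factors, KLF3 as a repressor that binds CtBP corepressors, and KLF9, KLF10, KLF11, KLF13 and KLF16 as factors that bind the SIN3 corepressor. In blood cells, KLF4 is known for monocyte differentiation, and KLF2 for holding T cells and monocytes in a resting state.

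The promoters of 3 members are shown because KLF2 and KLF4, a closely related pair, ended the time course on opposite sides of their 0 h levels, and because KLF6 had the highest fitted rise of the 10 at 4 d. Each is the 250 bases before the RefSeq start (GRCh38.p14), read 5′ to 3′ on the gene's strand. They lie at chr19:16324576-16324825 on the plus strand (KLF2), chr9:107489770-107490019 on the minus strand (KLF4) and chr10:3785210-3785459 on the minus strand (KLF6). Capitals mark GGGCGG and its complement CCGCCC, the box bound by SP and KLF factors, and in KLF2 the run CTAAATTTAG, which fits the consensus of MEF2 factors.
KLF2: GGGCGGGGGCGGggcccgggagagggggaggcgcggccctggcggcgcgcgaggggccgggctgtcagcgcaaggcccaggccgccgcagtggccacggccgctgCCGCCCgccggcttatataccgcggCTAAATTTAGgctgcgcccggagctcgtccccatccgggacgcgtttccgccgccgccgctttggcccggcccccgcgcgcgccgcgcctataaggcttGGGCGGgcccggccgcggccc
KLF4: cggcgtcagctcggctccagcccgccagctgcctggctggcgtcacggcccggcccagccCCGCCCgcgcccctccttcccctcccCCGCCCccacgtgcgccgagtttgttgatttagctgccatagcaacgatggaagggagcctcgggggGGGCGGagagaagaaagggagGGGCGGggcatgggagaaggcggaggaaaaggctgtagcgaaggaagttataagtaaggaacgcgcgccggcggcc
KLF6: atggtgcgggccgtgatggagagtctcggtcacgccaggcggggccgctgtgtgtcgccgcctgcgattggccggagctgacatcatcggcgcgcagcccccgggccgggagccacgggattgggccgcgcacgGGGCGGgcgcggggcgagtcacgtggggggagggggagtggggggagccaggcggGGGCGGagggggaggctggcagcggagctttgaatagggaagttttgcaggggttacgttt
The promoters of KLF2 and KLF4 held 4 matches of the GGGCGG box each and that of KLF6 held 2, counting both strands and overlaps. At least 1 match stood in 42.6% of the 35116 RefSeq promoters of this length. The element CACCC, searched on both strands (GGGTG on the other), had no match in these windows and at least 1 in 54.7% of all promoters. The MEF2 consensus (CTA, 4 letters of A or T, then TAG, its own complement) stood in 181 of the 35116 promoters (0.515%). KLF2 was the 1 member with a match, 120 bases before its start, and the consensus was searched for after the KLF2 sequence had been seen. A match describes letters in the window only. Promoters of 8 of the 10 genes were read. KLF3 and KLF10 were not analysed here.

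Reads in genes ran from 7866757 to 13658177 per library. CD38, a direct ATRA target, went from 1.48 ± 0.58 CPM (gene reads scaled to library size; SD, n = 3) at 0 h to 66.3 ± 15 at 4 h, as a check of the labels. The summed CPM of 6 promyelocyte markers ran from 30800 to 44000 at 0 h and from 8220 to 9580 at 4 d, that of 14 neutrophil maturation markers from 1210 to 1830 and from 5940 to 7870, that of 14 monocyte markers from 2200 to 4130 and from 830 to 1130, and that of 12 eosinophil and basophil markers from 5360 to 7980 and from 716 to 744. The part of such shifts in the KLF values was not tested. MRC1 was at 0 in all groups, as were HBA1 and HBA2 among the lymphoid and erythroid markers. Some libraries stood apart. The slope on transcript GC content was taken of each library's expression less the mean of the other 2 libraries of its group. It was 0.491 log2 units per 10 percentage points in 0 h replicate 2. It was 0.366 in 4 h replicate 3, 0.314 in 4 d replicate 1, and -0.355 to 0.0617 in the other libraries. Slopes within a group therefore depend on each other. Library 1 of the 4 h group had reads in 22265 genes, while the remaining 11 each had them in 15198 to 15798.

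Every adjusted p below comes from the edgeR quasi-likelihood fit, adjusted by Benjamini-Hochberg over the 12671 genes tested, and 0.05 was the threshold. At 4 h, KLF10 was the 1 member that rose and KLF4 the 1 that fell, where 2% of all tested genes rose and 4.23% fell. At 2 d, 5 of the 10 had risen (KLF3, KLF6, KLF7, KLF10 and KLF13), against 16.9% of all genes, and 2 had fallen (KLF4 and KLF16), against 18.7%. At 4 d, 6 of the 10 were higher than at 0 h, the same 5 and KLF2, against 28.1% of all genes, and KLF4 and KLF16 were lower, against 29.7%. The count of 6 was 4 in a fit on the 6 libraries of 0 h and 4 d, where KLF2 and KLF13 did not pass, 5 with offsets for GC content and transcript length, and 5 to 6 with 1 library left out. The median log2 fold change of the 10 was -0.25 at 4 h, 0.56 at 2 d and 1.02 at 4 d, beside medians between -0.02 and 0.00 over all genes tested. These 3 comparisons share the 0 h libraries.

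Between 4 h and 2 d, 4 of the 10 rose (KLF2, KLF3, KLF6 and KLF7), where 16.5% of all genes did. The number that fell was 0, where 18% of all genes fell. It was also 0 at an unadjusted p under 0.05, with DESeq2 and with limma-voom. Between 2 d and 4 d, KLF2 and KLF6 rose, where 13.1% of all genes did, and KLF4 fell, where 13.5% did. In the test for any difference among the 4 times, 8 of the 10 passed, beside 63.2% of all genes. KLF9 and KLF11 did not pass (adjusted p = 0.298 and 0.388).

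**Figure D1:**
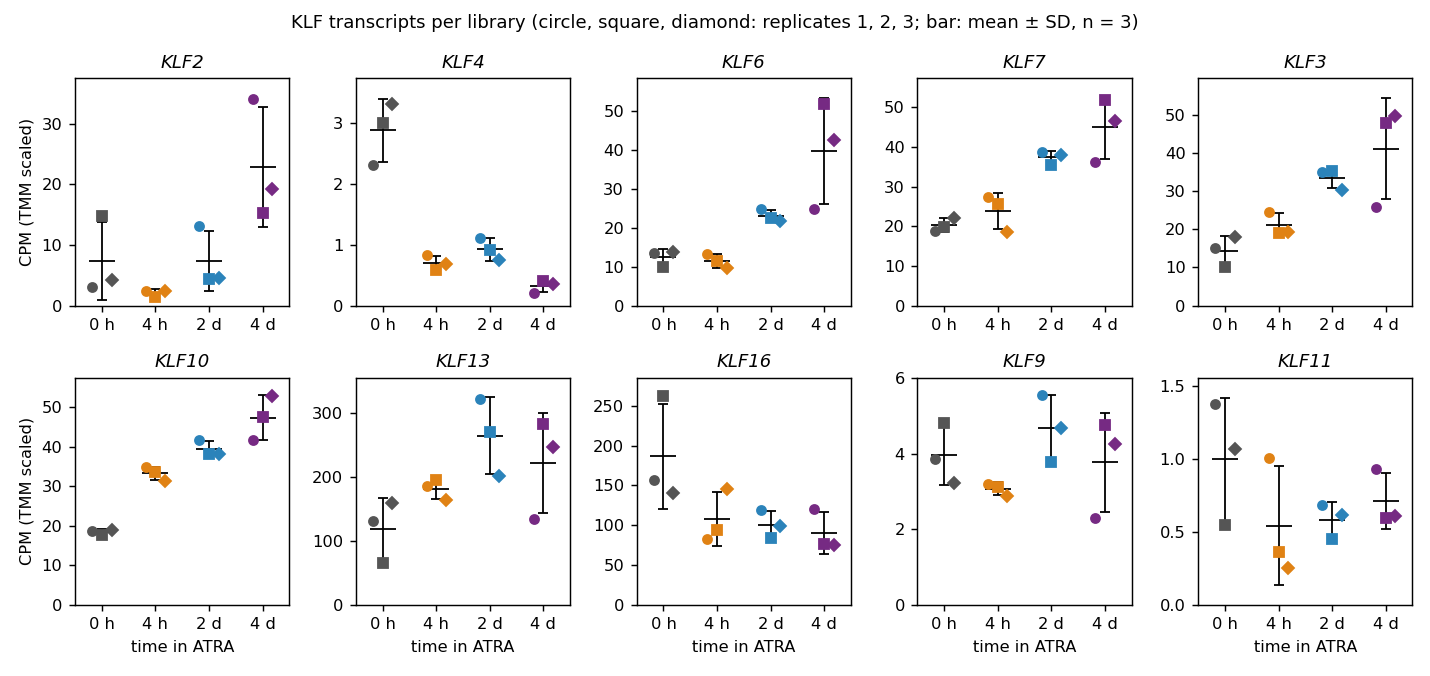
Expression of the 10 KLF genes in each of the 12 libraries, in TMM-scaled CPM (each y axis starts at 0 and has its own range), by time in ATRA; points are libraries and bars the mean ± SD of 3. KLF10 climbs in tight groups from 18.6 to 47.4, KLF4 drops from 2.87 to 0.318, and KLF2 and KLF16 are widely spread at 0 h.

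KLF4, a reprogramming factor known in blood for promoting monocyte fate, fell within 4 h and was lower still at 4 d. Its libraries held 2.3, 3 and 3.31 CPM at 0 h, 0.824, 0.581 and 0.678 at 4 h, 1.11, 0.908 and 0.739 at 2 d, and 0.208, 0.397 and 0.348 at 4 d. Every library in ATRA lay below every library at 0 h, and every 4 d library below every 2 d library. The log2 fold change from 0 h was -2.04 ± 0.32 (SE) at 4 h (4.11-fold lower, adjusted p = 0.00262), -1.61 ± 0.32 at 2 d (3.05-fold lower, adjusted p = 0.0016) and -3.12 ± 0.37 at 4 d (8.69-fold lower, adjusted p = 1.13e-05). All 23 alternatives kept these 3 calls.

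The fall of KLF4 was not one steady slope. From 4 h to 2 d its groups overlapped, with a log2 fold change of 0.43 ± 0.36 (adjusted p = 0.39), and from 2 d to 4 d it fell by 1.51 on the log2 scale (SE 0.42, adjusted p = 0.0176). The levels are low: 25 to 34 reads per library at 0 h and 2 to 4 at 4 d. The last step lost its call without 2 d replicate 1 (-1.36, adjusted p = 0.0707), 2 d replicate 2 (-1.53, 0.0531), 4 d replicate 1 (-1.30, 0.0687) or 4 d replicate 3 (-1.58, 0.0505).

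KLF2, the factor that keeps lymphocytes and monocytes quiescent, was higher at 4 d than at 0 h and at 2 d. It measured 3.13, 14.7 and 4.19 CPM at 0 h, 2.47, 1.38 and 2.37 at 4 h, 13.1, 4.39 and 4.56 at 2 d, and 34, 15.3 and 19.2 at 4 d. The 4 d libraries lay above all others, and the 4 h libraries below all others. Replicate 2 at 0 h, replicate 1 at 2 d and replicate 1 at 4 d were each well above the other libraries of their group.

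The change of KLF2 from 0 h to 4 d was 1.63 ± 0.55 on the log2 scale (3.09-fold, adjusted p = 0.0207). From 4 h to 2 d it rose by 1.84 ± 0.62 (adjusted p = 0.033), and from 2 d to 4 d by 1.62 ± 0.55 (adjusted p = 0.0426). The value at 4 h, -1.84 ± 0.62, missed the threshold (adjusted p = 0.094). It passed with DESeq2 (-1.85, 0.022), not with limma-voom or in any fit with 1 library left out, and ran from -2.20 to -0.83 with 1 library left out, the latter without 0 h replicate 2. At 2 d it stood at 0.01 ± 0.56 from 0 h (adjusted p = 0.995), and the sign of that value changed with the setting.

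The calls on KLF2 depended on single libraries and on the fit. The 4 d call was lost in a fit on the 6 libraries of those groups (1.61, adjusted p = 0.054) and without 0 h replicate 1 (1.26, adjusted p = 0.0791), 0 h replicate 3 (1.34, 0.0782) or 4 d replicate 1 (1.22, 0.0823), and the change was 2.64 without 0 h replicate 2. The rise from 4 h to 2 d was 1.12 without 2 d replicate 1 (adjusted p = 0.209), and lost its call without 4 h replicate 1 (adjusted p = 0.0685), 2 (1.61, 0.114) or 3 (1.94, 0.0751) and with limma-voom (1.70, 0.0719). The rise from 2 d to 4 d lost its call without any 1 of 7 libraries (each at 4 h, 2 d replicate 2 or 3, 4 d replicate 1 or 3), with values of 1.22 (4 d replicate 1) to 1.73 (4 d replicate 3). The KLF2 transcript has a GC content of 65.2%, and 2 of its 3 high libraries were among those with the steep GC slope. With offsets for GC content and transcript length the 4 d change was 2.00 (adjusted p = 0.000673).

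The read ratio of KLF2 to KLF4 sets the pair side by side within each library. It was 1.36, 4.91 and 1.26 at 0 h, 3, 2.38 and 3.5 at 4 h, 11.8, 4.83 and 6.17 at 2 d, and 164, 38.5 and 55 at 4 d. All 4 d libraries exceeded all others, and the 2 d range overlapped the 0 h range only through 0 h replicate 2. The 4 d ratios rest on 2 to 4 KLF4 reads per library.

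KLF6, an activating factor induced by injury and inflammatory signals in several tissues, did not pass the test at 4 h and rose at each later step. Its libraries held 13.4, 10 and 13.8 CPM at 0 h, 13.2, 11.4 and 9.58 at 4 h, 24.8, 22.5 and 21.8 at 2 d, and 24.9, 51.9 and 42.6 at 4 d. The 0 h and 4 h libraries overlapped, and all 2 d and 4 d libraries lay above them. Replicate 1 at 4 d exceeded the highest 2 d library by little.

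From 0 h the log2 fold change of KLF6 was -0.13 ± 0.24 at 4 h (adjusted p = 0.757), 0.89 ± 0.24 at 2 d (adjusted p = 0.0113) and 1.68 ± 0.24 at 4 d (3.21-fold, adjusted p = 5.39e-05). The steps from 4 h to 2 d and from 2 d to 4 d were 1.02 ± 0.24 (adjusted p = 0.00532) and 0.79 ± 0.23 (adjusted p = 0.0239). The calls at 2 d and 4 d against 0 h held under all 23 alternatives. The last step lost its call without 2 d replicate 1 (0.84, adjusted p = 0.0566), 2 (0.77, 0.0847) or 3 (0.75, 0.0782), or without 4 d replicate 2 (0.56, 0.104) or 3 (0.73, 0.0751), and with library totals in place of TMM factors (0.81, 0.057).

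KLF7, a near relative of KLF6 known from neuronal development, rose by 2 d and was called no higher at 4 d than at 2 d. It measured 18.9, 19.8 and 22.2 CPM at 0 h, 27.3, 25.5 and 18.6 at 4 h, 38.8, 35.5 and 37.9 at 2 d, and 36.3, 51.9 and 46.6 at 4 d. The 0 h and 4 h libraries overlapped, all later libraries lay above both, and the 2 d and 4 d libraries overlapped. Against 0 h, KLF7 rose on the log2 scale by 0.88 ± 0.18 at 2 d (adjusted p = 0.00181) and by 1.14 ± 0.18 at 4 d (2.21-fold, adjusted p = 9.73e-05). It was 0.23 ± 0.18 at 4 h (adjusted p = 0.411), 0.65 ± 0.17 from 4 h to 2 d (adjusted p = 0.0107) and 0.26 ± 0.17 from 2 d to 4 d (adjusted p = 0.281). The 2 d value was 0.53 with GC and length offsets and kept its call.

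KLF3, the family's CtBP-binding repressor, rose by 2 d. Its libraries held 15.1, 10.1 and 17.9 CPM at 0 h, 24.7, 19.2 and 19.3 at 4 h, 35.1, 35.4 and 30.4 at 2 d, and 25.9, 48.1 and 49.9 at 4 d. The 0 h, 4 h and 2 d groups followed each other upward without overlap, while 4 d replicate 1 fell below all 2 d libraries. On the log2 scale KLF3 differed from 0 h by 0.55 ± 0.25 at 4 h (adjusted p = 0.195), 1.23 ± 0.25 at 2 d (adjusted p = 0.00233) and 1.52 ± 0.26 at 4 d (2.88-fold, adjusted p = 0.000196).

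The 2 later calls on KLF3 held under all 23 alternatives. From 2 d to 4 d the change was 0.30 ± 0.25 (adjusted p = 0.408). That step passed without 0 h replicate 2, 4 d replicate 1 and either 4 h replicate 1 (0.54, 0.00502) or 3 (0.55, 0.00162). The step from 4 h to 2 d, 0.68 ± 0.25, passed narrowly (adjusted p = 0.0498), and 10 of 23 alternatives ended that call. Among them, 8 left out 1 library each (0 h replicate 1, 4 h replicate 2 or 3, any at 2 d, 4 d replicate 2 or 3), with values of 0.60 (without 4 h replicate 3, adjusted p = 0.14) to 0.75 (without 2 d replicate 3, 0.0728). The antisense gene KLF3-AS1 shares 266 exon bases with KLF3 in GENCODE v29 and held 16 to 46 reads per group, against 459 to 1307 for KLF3. The strand setting of the counting is not given in the sources used here, so reads from the shared bases cannot be told apart. The same limit holds for KLF16 and KLF11. KLF16 shares 483 exon bases with AC012615.3 on the opposite strand, and KLF11 shares 416 with AC104794.4. Neither of these symbols is in the count files.

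KLF10, known as a TGF-beta-inducible early gene and a SIN3-binding repressor of growth, rose within 4 h and kept its gain. It measured 18.8, 17.8 and 19 CPM at 0 h, 34.8, 33.7 and 31.4 at 4 h, 41.8, 38.1 and 38.3 at 2 d, and 41.8, 47.5 and 53 at 4 d. No library in ATRA came near the 0 h libraries, the 2 d libraries all lay above the 4 h libraries, and the 2 d and 4 d libraries overlapped. The log2 fold change from 0 h was 0.84 ± 0.13 at 4 h (1.79-fold, adjusted p = 0.00258), 1.09 ± 0.13 at 2 d (2.12-fold, adjusted p = 4.65e-05) and 1.35 ± 0.13 at 4 d (2.55-fold, adjusted p = 2.06e-06).

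All 23 alternatives kept the 3 calls on KLF10. Its standard errors were the lowest of the 10 genes in these comparisons. The later steps, 0.24 ± 0.13 from 4 h to 2 d (adjusted p = 0.169) and 0.27 ± 0.13 from 2 d to 4 d (adjusted p = 0.15), did not pass. With GC and length offsets both passed (0.27, adjusted p = 0.0402 and 0.36, 0.0126). The last step also passed without 0 h replicate 2, 4 d replicate 1 and either 4 h replicate 1 (0.35, 0.0409) or 3 (0.36, 0.00905).

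KLF11, the closest relative of KLF10 and likewise named for TGF-beta, was barely read in this line. Its counts were 15, 6 and 11 reads at 0 h, 11, 5 and 3 at 4 h, 8, 6 and 5 at 2 d, and 9, 6 and 7 at 4 d. The groups overlapped in every comparison. The log2 fold change from 0 h was -0.90 ± 0.52 at 4 h (adjusted p = 0.282), -0.77 ± 0.53 at 2 d (adjusted p = 0.27) and -0.49 ± 0.51 at 4 d (adjusted p = 0.437). With 3 libraries left out together, 4 d replicate 1, 4 h replicate 1 and 0 h replicate 2, the 4 h value passed (-1.96, adjusted p = 0.0469). The steps from 4 h to 2 d (0.13 ± 0.56, adjusted p = 0.887) and from 2 d to 4 d (0.29 ± 0.55, adjusted p = 0.739) did not pass.

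KLF9, a factor known for its response to glucocorticoid and thyroid hormone, passed in none of the 5 comparisons. It measured 3.86, 4.82 and 3.22 CPM at 0 h, 3.21, 3.12 and 2.88 at 4 h, 5.56, 3.78 and 4.68 at 2 d, and 2.29, 4.76 and 4.27 at 4 d. The 4 h libraries lay just below all 0 h libraries, and the later groups overlapped both 0 h and each other. Its log2 fold change from 0 h was -0.37 ± 0.29 at 4 h (adjusted p = 0.413), 0.23 ± 0.28 at 2 d (adjusted p = 0.545) and -0.07 ± 0.29 at 4 d (adjusted p = 0.848). Its step from 4 h to 2 d was 0.60 ± 0.28 (adjusted p = 0.119).

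KLF13, known for activating the chemokine gene CCL5 late in T cell activation, rose at 2 d. Its libraries held 132, 65.4 and 159 CPM at 0 h, 186, 196 and 164 at 4 h, 323, 271 and 202 at 2 d, and 135, 284 and 248 at 4 d. The 4 h libraries lay above all 0 h libraries and the 2 d libraries above all 4 h libraries, while 4 d replicate 1 fell inside the 0 h range. The log2 fold change from 0 h was 0.62 ± 0.32 at 4 h (adjusted p = 0.235), 1.16 ± 0.32 at 2 d (2.23-fold, adjusted p = 0.0129) and 0.90 ± 0.32 at 4 d (1.87-fold, adjusted p = 0.0262). From 4 h to 2 d it was 0.54 ± 0.32 (adjusted p = 0.206), and from 2 d to 4 d it was -0.25 ± 0.32 (adjusted p = 0.592). The former step passed without a filter (0.56, 0.0461) and in the fit on 6 libraries (0.54, 0.035). It also passed without 0 h replicate 2, 4 d replicate 1 and either 4 h replicate 1 (0.58, 0.0181) or 3 (0.47, 0.0179).

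Neither call on KLF13 held throughout. With offsets for GC content and length, the values were 0.74 at 2 d (adjusted p = 0.1) and 0.36 at 4 d (adjusted p = 0.387). The 2 d call was lost without 2 d replicate 1 (1.00, adjusted p = 0.0601). The 4 d call was lost without 0 h replicate 2 (0.61, 0.0735), 4 d replicate 2 (0.68, 0.108) or 4 d replicate 3 (0.82, 0.0768), and in a fit on the 6 libraries of those groups (0.90, 0.076).

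KLF16, a SIN3-binding repressor first described at the dopamine receptor gene, fell. It measured 157, 262 and 141 CPM at 0 h, 82.3, 94 and 146 at 4 h, 119, 83.4 and 99.4 at 2 d, and 121, 76 and 75.1 at 4 d. The 2 d and 4 d libraries all lay below the 0 h libraries, and 4 h replicate 3 lay just inside the 0 h range. The log2 fold change from 0 h was -0.80 ± 0.28 at 4 h (adjusted p = 0.112), -0.89 ± 0.29 at 2 d (1.86-fold lower, adjusted p = 0.027) and -1.04 ± 0.29 at 4 d (2.06-fold lower, adjusted p = 0.0069). All 23 alternatives kept the 4 d call.

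The 2 d call on KLF16 was lost without 0 h replicate 2 (-0.57, adjusted p = 0.101), 2 d replicate 2 (-0.78, 0.0963) or 2 d replicate 3 (-0.88, 0.073). At 4 h it passed without 4 h replicate 3 (-1.06, adjusted p = 0.0419). The KLF16 transcript has the highest GC content of the 10, 67.8%, and KLF16 was highest of its group in each of the 3 libraries with the steep GC slope. KLF13, whose 57.6% was exceeded only by KLF16 and KLF2, was lowest of its group in the same 3 libraries. The offsets above were fitted on deviations from a gene's mean over all 12 libraries. They can therefore also take out trends between the times. The part of GC content in the spread within groups was not tested.

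**Figure D2:**
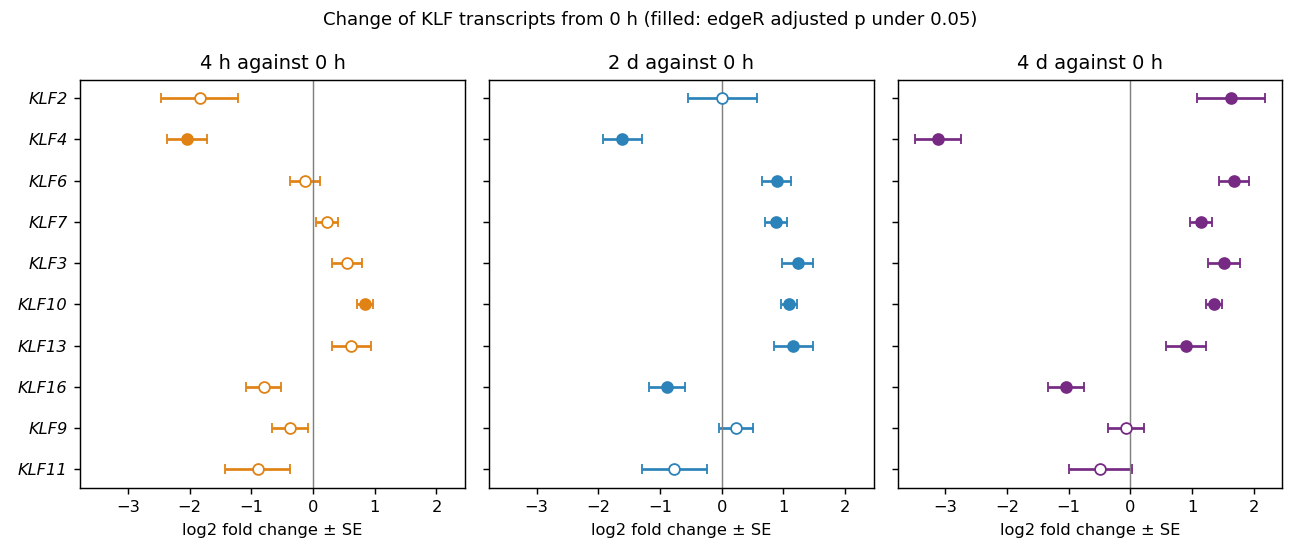
Log2 fold change from 0 h (x axis, ± SE) of the 10 KLF genes at 4 h, 2 d and 4 d, with filled points for adjusted p under 0.05. KLF10 and KLF4 are filled in all 3 panels on opposite sides of 0, and KLF2 moves from -1.84 at 4 h to 1.63 at 4 d.

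Libraries of 1 group did not shift all members alike. Replicate 1 at 2 d was the highest of its group for 9 of the 10 genes and replicate 1 at 4 h for 8. Replicate 1 at 4 d was the lowest of its group for 7 and the highest for KLF2, KLF11 and KLF16. Replicate 2 at 0 h was the lowest for 5 and the highest for KLF2, KLF9 and KLF16.

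Levels of different genes were compared as CPM per kilobase of the longest GENCODE v29 transcript. KLF16 led at 0 h with 64.6 ± 22.7 CPM per kb, above KLF13 with 17.4 ± 7.07 and KLF10 with 5.07 ± 0.174. KLF2, KLF3, KLF6 and KLF7 followed between 3.64 and 2.43, with each neighbour overlapping the next and KLF10 overlapping KLF2. KLF4 (1.02 ± 0.185) and KLF9 (0.766 ± 0.156) overlapped below them, and KLF11 was lowest with 0.248 ± 0.104.

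At 4 d KLF13 (32.6 ± 11.4 CPM per kb) and KLF16 (31.4 ± 9.09) overlapped at the head of the order. KLF10 (13 ± 1.53), KLF2 (11.3 ± 4.89), KLF6 (8.55 ± 2.94), KLF3 (8.06 ± 2.61) and KLF7 (5.37 ± 0.949) each overlapped the next in line. KLF9 followed with 0.729 ± 0.253. KLF4 had moved to the last place, with 0.113 ± 0.0349, just below KLF11 with 0.177 ± 0.0477. At 4 h KLF2 stood at 1.03 ± 0.3, between KLF6 and KLF9 and apart from both, and KLF16 still overlapped KLF13 at the head. At 2 d KLF13, KLF16, KLF10, KLF3, KLF6, KLF7, KLF2, KLF9, KLF4 and KLF11 followed in that order, and only KLF13 with KLF16 and KLF7 with KLF2 overlapped as neighbours.

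**Figure D3:**
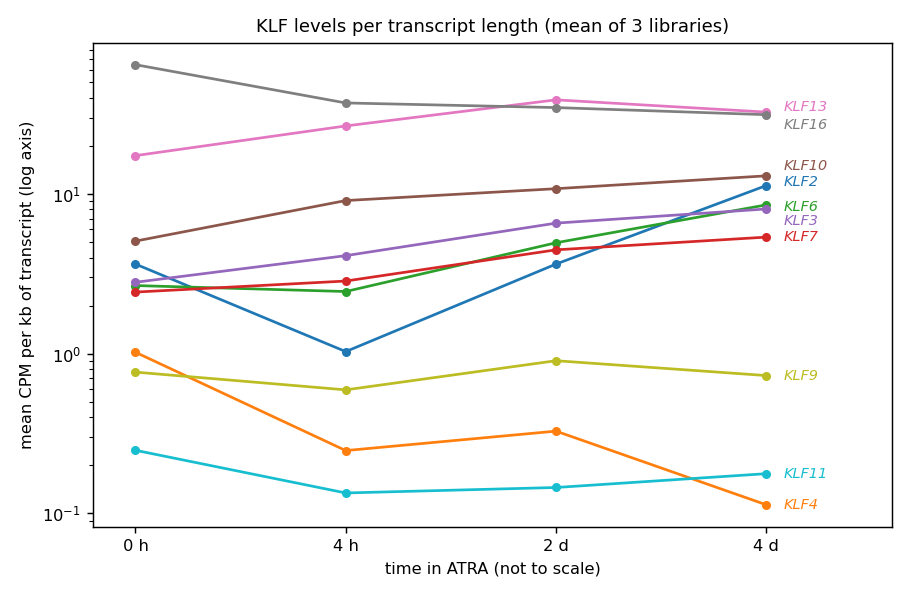
Mean CPM per kb of transcript (log axis, 3 libraries per point) of the 10 KLF genes by time in ATRA, which is not drawn to scale. KLF16 and KLF13 meet at 31.4 and 32.6 at 4 d, and the KLF4 line ends lowest at 0.113.

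As a share of the summed per-kb level of the 10 genes, KLF16 held 63 ± 10.8% at 0 h and 28.5 ± 9.72% at 4 d, KLF13 18.4 ± 9.29% and 29 ± 9.02%, and KLF10 5.15 ± 0.973% and 11.6 ± 1.14%. KLF2 held 3.35 ± 2.35% and 10.3 ± 4.99%. The KLF13 to KLF16 read ratio was 0.84, 0.25 and 1.13 at 0 h, 2.26, 2.09 and 1.12 at 4 h, 2.71, 3.25 and 2.03 at 2 d, and 1.12, 3.74 and 3.3 at 4 d. The 2 d ratios all lay above the 0 h ratios, while 4 d replicate 1 fell inside the 0 h range.

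**Figure D4:**
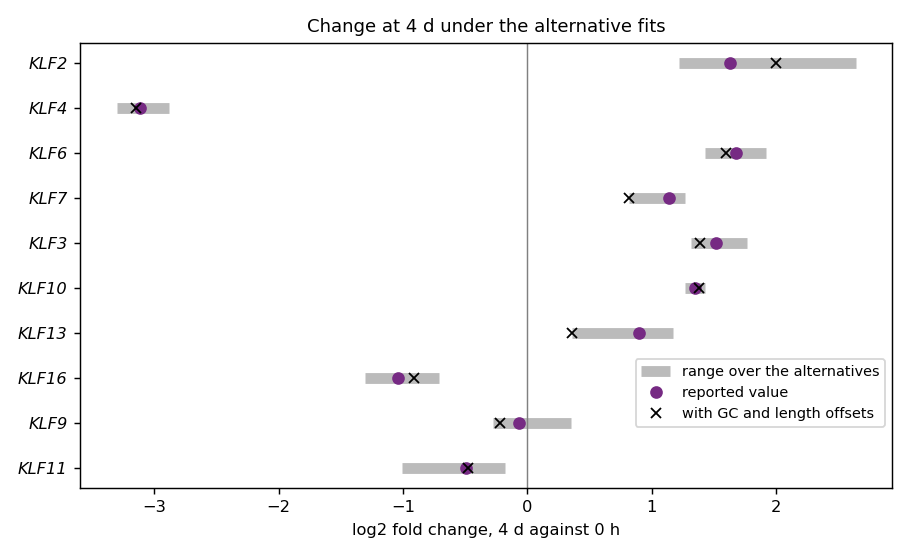
Log2 fold change from 0 h to 4 d (x axis) of each KLF gene as reported (points), its range over the alternative fits (grey bars) and its value with GC and length offsets (crosses). KLF10 moves least, between 1.27 and 1.43, and KLF13 moves down to 0.36 with the offsets.

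The genes most like 4 members over the 12 libraries were sought by Pearson correlation of log2 CPM, among genes with a mean of at least 10 CPM. The libraries fall into 4 times, so genes that follow the same time course score high, and the values are a description. KLF2, KLF4, KLF6 and KLF3 had the widest range of group means. The nearest to KLF2 were KLC1 (r = 0.968), EEPD1 (0.954) and RELB (0.949). Those nearest to KLF4 were C9orf139 (0.920), ACACA (0.914) and ADARB1 (0.910). ERVK13-1 (0.992) and TGFBR2 (0.985) were nearest to KLF6, and PTPN9 (0.983), WIPF1 (0.983) and PRKAR1A (0.982) to KLF3.

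Of the 7 other KLF genes, 2 passed the filter, and both were lower at 4 d, where 29.7% of all tested genes fell. KLF1, the erythroid factor of the family, fell from 2.85 ± 0.841 CPM at 0 h to 1.06 ± 0.199 at 2 d and 0.493 ± 0.201 at 4 d (log2 fold change -2.53 ± 0.38, adjusted p = 7.24e-05). KLF5, known from gut epithelium and also from granulocyte development, fell from 6.77 ± 1.5 to 2.05 ± 0.228 CPM at 4 d (-1.72 ± 0.27, adjusted p = 0.000121). KLF15 had 20 reads in all at 0 h and 1 at 4 d. KLF12 had 10 reads, all in 4 h replicate 1, where far more genes were hit than elsewhere, and KLF8, KLF14 and KLF17 had 1 to 4 reads each over all 12 libraries.

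The SP factors, the sister family that shares the same type of zinc fingers, had 4 tested genes. SP1, SP2 and SP3 rose at 2 d and 4 d, where 16.9% and 28.1% of all tested genes rose. SP4 did not pass the test over all times (adjusted p = 0.704). SP1 measured 101 ± 6.56 CPM at 0 h, 164 ± 5.39 at 2 d and 214 ± 35.9 at 4 d, with a log2 fold change at 4 d of 1.09 ± 0.16 (adjusted p = 7.02e-05). SP3 rose by 1.00 ± 0.18 at 4 d (adjusted p = 0.000278) and SP2 by 0.68 ± 0.16 (adjusted p = 0.0028).

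Among 17 corepressor genes that serve KLF repressors, 6 rose and 5 fell at 4 d, shares near the 28.1% and 29.7% of all tested genes. SIN3B, a scaffold bound by KLF10, KLF11, KLF13 and their relatives, rose by 2.69 ± 0.37 on the log2 scale (adjusted p = 4.14e-05), from 62.1 to 182 CPM in the 0 h libraries to 503 to 1020 at 4 d. ARID4B (1.48 ± 0.18) and ARID4A (1.11 ± 0.18), subunits of the SIN3 complex, rose, and SAP30, another subunit, fell by 1.70 on the log2 scale (SE 0.22). CTBP2, a partner of KLF3, was also among the 6 that rose (0.92 ± 0.13, adjusted p = 5.52e-05). CTBP1 (-0.11 ± 0.27, adjusted p = 0.743) and SIN3A (-0.39 ± 0.18, adjusted p = 0.0742) did not pass. The list median at 4 d was -0.11.

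A list of the MEK5 and ERK5 kinase branch upstream of KLF2 and KLF4 also held the MEF2 factors and the deacetylases that bind them. At 4 d, 5 of its 10 tested genes rose and 1 fell, beside 28.1% and 29.7% of all tested genes. The kinases that name the branch did not pass at 4 d: MEK5 (MAP2K5) stood at -0.32 ± 0.20 (adjusted p = 0.197) and ERK5 (MAPK7) at 0.49 ± 0.34 (adjusted p = 0.235). MAP3K3, a kinase at its head, went from 47.9 ± 4.03 CPM at 0 h to 96.3 ± 3.17 at 2 d and 194 ± 30.5 at 4 d (log2 fold change 2.02 ± 0.16, adjusted p = 2.98e-07). MAP3K2 rose by 1.11 ± 0.23, and the MEF2-binding deacetylases HDAC5 and HDAC4 by 0.69 ± 0.16 and 0.66 ± 0.16. MEF2D fell by 0.67 on the log2 scale at 4 h (SE 0.13, adjusted p = 0.0111) and by 0.70 at 4 d (SE 0.13). MEF2A rose at 4 d (0.57 ± 0.17, adjusted p = 0.00959), and MEF2B did not pass (0.03 ± 0.41, adjusted p = 0.95). The list median at 4 d was 0.53.

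Among 12 tested ubiquitin ligases and related genes reported for KLF proteins, 7 rose and 2 fell at 4 d (median 0.72), where 28.1% and 29.7% of all tested genes did. ITCH (1.13 ± 0.27), SMURF2 (0.95 ± 0.17) and SIAH1 (0.86 ± 0.25) rose, and STUB1 fell by 0.75 on the log2 scale (SE 0.22). Protein levels were not measured.

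Of 15 tested genes reported as KLF2 or KLF4 targets in leukocytes or endothelium, a list that includes both factors, 9 rose and 3 fell at 4 d (median 1.49), with KLF2 among the 9 and KLF4 among the 3, where 28.1% and 29.7% of all tested genes rose and fell. ITGB7, an integrin chain of lymphocyte homing, rose by 4.98 ± 0.21 on the log2 scale, from 10.8 ± 2.61 CPM to 342 ± 10.8. The factor IRF4 rose from 0 to 2 reads per library at 0 h to 27 to 35 at 4 d, and the anticoagulant receptor THBD rose by 4.09 ± 0.25 on the log2 scale. THBD had already risen at 4 h (adjusted p = 1.57e-05), when the monocyte receptor CD14 had fallen (-2.84 ± 0.20, adjusted p = 4.02e-06), as had KLF4. The later times differed: CD14 went from 4.1 ± 0.387 CPM at 2 d to 15 ± 1.58 at 4 d, where KLF4 was lowest. At 0 h CD14 had measured 22.5 ± 2.17 CPM. CD14, ITGAM and others on this list are also maturation markers, whose summed levels moved with time as given above.

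Of 13 tested TGF-beta pathway genes around KLF10 and KLF11, 2 rose and 1 fell at 4 h, the time at which KLF10 first rose, beside 2% and 4.23% of all tested genes. Those were SKIL (1.58 ± 0.22, adjusted p = 0.00104) and SKI (0.90 ± 0.22, adjusted p = 0.0261), which restrain SMAD signalling, and TGIF1 (-0.62 ± 0.14, adjusted p = 0.0233). At 4 d, 5 rose and 2 fell (median 0.39; 28.1% and 29.7% of all tested genes), with the matrix protein TGFBI (2.42 ± 0.68) and the receptors TGFBR2 (1.88 ± 0.28) and TGFBR1 (1.35 ± 0.20) among the former and SMAD6 (-1.79 ± 0.42) among the latter.

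Immediate early genes, which answer serum and handling within minutes, were read beside KLF4, KLF6 and KLF10, which can behave as such genes. At 4 h, 2 of 22 tested rose, EGR1 (2.42 ± 0.25) and FOS (2.05 ± 0.18), and 2 fell, JUN (-1.67 ± 0.17) and NR4A1 (-1.54 ± 0.39), where 2% of all tested genes rose and 4.23% fell. At 4 d, 9 rose and 5 fell, against 28.1% and 29.7% of all tested genes, with EGR3 (3.76 ± 0.44), EGR2 (2.79 ± 0.50) and BTG2 (2.69 ± 0.19) among those that rose and ATF3 (-2.65 ± 0.52) among those that fell. Their summed level ran from 1000 to 1680 CPM at 0 h, 929 to 1420 at 4 h and 1330 to 1480 at 4 d. The part of handling in the KLF values was not tested.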

How the data were processed

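The deposited values are counts, whole reads per gene and library. Per the submitters' processing notes, the authors used FastQC, Trim Galore 0.6.7, HISAT2 2.1.0, HTSeq 1.99.2 and hg19. The annotation, the strand setting and the kit were not given in the sources used here. Reads outside genes (14% to 28.1% of a library) and the other unassigned classes were left out.

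Counts were fitted in R 4.3.3 with edgeR 4.0.16 (filterByExpr, TMM factors, quasi-likelihood test, 1 mean per group over 12 libraries). P-values were adjusted by Benjamini-Hochberg over 12671 tested genes, and SE is the size of the log2 fold change divided by the root of F. CPM were computed with TMM factors. Every member was described in every comparison, with up to 4 called genes per related list in order of absolute fold change. CTBP2 was named besides, after its values were seen. HDAC4, MEF2A and the uncalled CTBP1, SIN3A, MAP2K5, MAPK7 and MEF2B were also named outside this order. A gene that the rule on likeness to KLF6 named is not reported here. The members and the lists were chosen with earlier results of these data known. GC content and length came from GENCODE v29 transcripts, matched by symbol for 90.2% of genes.

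Alternatives were RLE factors, library totals, other filters, DESeq2 1.42.0, limma-voom (limma 3.58.1), the 6 libraries compared, a replicate block, GC and length offsets, and left-out libraries. Replicates differed by more than counting error (chi-square per degree of freedom of 3.47 to 98). In data simulated for 4 d against 0 h, 200 of 12671 genes were changed, 50 per fold. All 200 had a mean log2 CPM above 0. The fit recovered 12% of 1.5-fold, 44% of 2-fold, 94% of 4-fold and 100% of 8-fold changes, and 3.85% of calls were false. Far more genes were called in the data at 4 d (28.1% higher and 29.7% lower). The simulated rates therefore need not hold for these data, or for genes of lower level.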

Additional observations from a re-analysis of the deposited data

How the results depend on the processing

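Of 1140 comparisons of a member's value with its value under an alternative, 1039 kept their direction and their side of the threshold, 54 lost a call, 21 gained one and 26 changed sign. Members called lower at 4 h numbered 3 without a filter, 2 with DESeq2, 2 and 2 without the 3 libraries (0 h replicate 2, 4 d replicate 1 and either 4 h replicate 1 or 3), and 1 to 2 with 1 library left out. Without a filter, edgeR gave every gene the spread of the trend (an infinite prior), so p-values of that fit, which called KLF2 and KLF16 lower at 4 h and not KLF4 from 2 d to 4 d, do not carry a gene's own spread. The replicate block left 1 member lower at 2 d, 2 higher from 4 h to 2 d and 0 higher from 2 d to 4 d; with 1 library left out these counts were 1 to 2, 2 to 4 and 0 to 2. Members higher from 2 d to 4 d numbered 1 with library totals, 4 with GC and length offsets, and 4 and 5 without the 3 libraries. Members lower from 2 d to 4 d numbered 0 without a filter, in the fit on 6 libraries and without the 3 libraries that include 4 h replicate 1, and 0 to 1 with 1 library left out. The fit on 6 libraries gave no result for KLF4 in that step, so its 0 is not a lost call. With the block, calls were lost on KLF13 at 4 d (0.91, adjusted p = 0.0525), KLF16 at 2 d (-0.90, 0.0572), KLF2 and KLF3 from 4 h to 2 d (1.73, 0.0612 and 0.68, 0.0857), and KLF2 and KLF6 from 2 d to 4 d (1.68, 0.0592 and 0.78, 0.0585). The replicate numbers did not pair the samples: 3 of 18 same-numbered pairs had a correlation of deviations above 0.1 (range -0.613 to 0.4).

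Sign changes met only values that were not called. KLF2 at 2 d against 0 h was -0.00 with RLE factors, -0.01 with DESeq2, -0.02 in the fit on 6 libraries, -0.12 with the replicate block and -0.72 to 1.02 with 1 library left out. KLF9 at 4 d was 0.03 with library totals, 0.35 and 0.35 without the 3 libraries and -0.28 to 0.18 with 1 left out. KLF7 at 4 h was -0.08 with the offsets, and KLF6 at 4 h was 0.00 without 4 h replicate 3. KLF11 from 4 h to 2 d was -0.19, KLF16 from 4 h to 2 d 0.18, and KLF13 from 2 d to 4 d 0.00 and 0.01 without the 3 libraries. With 1 left out their lowest and highest were -0.22 and 0.87, -0.26 and 0.17, and -0.47 and 0.01. The causes were not tested.

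Over all genes, 254 were called higher and 536 lower at 4 h. Those counts were 749 and 1211 without a filter, 525 and 816 with DESeq2, 524 and 894 with the offsets, 80 and 181 in the fit on 6 libraries, 113 and 268 with the replicate block, 1573 and 1619 without the 3 libraries that include 4 h replicate 3, and 88 to 796 and 166 to 723 with 1 library left out (88 and 166 without 4 h replicate 2, 796 higher without 4 h replicate 3). Without the same 3 libraries, genes higher at 2 d went from 2142 to 3261, genes higher from 4 h to 2 d from 2094 to 3324, and genes higher and lower from 2 d to 4 d from 1660 and 1714 to 2741 and 2808. The offsets gave 2667 higher from 2 d to 4 d, and leaving out 2 d replicate 2 gave 1015 higher and 1095 lower. Depth was lowest for KLF4 (2 to 4 reads per library at 4 d) and KLF11 (3 to 15 reads).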
